A study of Homo sapiens with 2 samples.

Results

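The synaptic vesicle and SNARE genes described here are SYP, VAMP2, SYT1, SYT4, SYT11, SNAP25, STX1A, RAB3A and CPLX2. They are listed by name, and all 9 were found among the 33538 Ensembl genes of the deposited table by matching their identifiers to symbols. They were measured in SH-SY5Y (SY5Y), a human neuroblastoma cell line grown from subclones of a line called SK-N-SH. The cells were untreated, were not synchronized in the cell cycle, and carried no introduced allele, agent or transgene in any group. A culture was divided into 2 flasks, SplitA and SplitB, whose cells were tagged with a hashtag antibody per flask, pooled and sequenced together by CITE-seq, which reads mRNA and antibody tags of the same cell. A cell was placed in a flask when the count of its own hashtag was at least 3 times that of the other and the other was at most 2.27 on the log10 scale, which left 1179 cells in SplitA, 1605 in SplitB and 95 multiplets of 2879 cells. Cells with at least 1000 genes were kept, 899 in SplitA and 1195 in SplitB.

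Neurons and neuroendocrine cells release transmitters by fusing vesicles with the plasma membrane. The SNARE proteins VAMP2 on the vesicle and SNAP25 and STX1A on the plasma membrane zip together to drive fusion, synaptotagmins carry C2 domains and several of them sense calcium, and complexins bind the assembled SNARE complex. RAB3A is a small GTPase that brings vesicles to release sites, and SYP, synaptophysin, is an abundant membrane protein of the vesicle that binds VAMP2. SY5Y cells derive from a tumour of the sympathetic lineage and also hold large dense-core granules, which are loaded with granins such as chromogranin A (CHGA) and chromogranin B (CHGB).

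The kept cells held 5852780 UMIs (unique molecular identifiers, each standing for a captured RNA molecule) in SplitA and 8066440 in SplitB, with a median of 6063 and 6346 UMIs per cell. Mitochondrial genes took a median of 8.64% and 8.82% of the UMIs. Of 10 adrenergic neuroblastoma markers, 8 were seen (had a UMI) in 5% or more of cells, with a summed level of 2498 and 2435 CPM (UMI counts scaled to a common total), and TH was among those below that limit. Of 10 mesenchymal markers only TWIST1 reached it (summed 192 and 189 CPM), PRRX1 had no UMI, and 0 of 8 glial markers reached it (summed 5.98 and 5.45 CPM), with SOX10, CDH19, FOXD3 and GFAP at 0. Leukocyte, endothelial, epithelial, erythroid, and liver and pancreas markers each summed to at most 1.98 CPM. No cell type that lacks the 9 genes was in the culture, so the share of cells that free RNA alone would give a UMI could not be measured. Because 1 flask stands against 1 flask in 1 library and cells are not replicates, no test between flasks could be made, and the classes of cells compared within each flask were also described without a test. Intervals are 95% intervals (exact Poisson for CPM, exact binomial for shares of cells) and cover counting error only.

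All 9 genes were detected in both flasks, from 20.0 to 126 CPM in SplitA and from 19.6 to 128 CPM in SplitB. The 9 together made up 556 CPM in SplitA and 565 CPM in SplitB. Since each UMI counts a molecule at its 3′ end, the CPM values were not divided by gene length, and the order given below is one of molecules captured. Each level is given first for SplitA and then for SplitB.

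SYT11, a synaptotagmin of vesicle membranes that does not bind calcium, was the most abundant of the 9 at 126 CPM (117 to 136) and 128 CPM (120 to 136), with a UMI in 50.7% and 51.0% of cells. SYT1, the calcium sensor of fast release, followed at 98.6 CPM (90.7 to 107) and 95.1 CPM (88.5 to 102) in 42.3% and 43.0% of cells. VAMP2 (synaptobrevin) had 86.8 CPM (79.4 to 94.7) and 100.2 CPM (93.4 to 107) in 42.4% and 46.7% of cells. The interval of SYT11 lay above the other 8 in both flasks, while those of SYT1 and VAMP2 overlapped.

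SNAP25 reached 74.8 CPM (68.0 to 82.2) and 68.2 CPM (62.6 to 74.1), with a UMI in 38.2% and 36.2% of cells. SYP stood at 55.4 and 55.7 CPM in 28.5% and 27.9% of cells, and SYT4, a synaptotagmin of dense-core granules and vesicles, at 48.2 and 49.7 CPM in 24.0% and 24.1% of cells. SNAP25 overlapped VAMP2 in SplitA and not in SplitB, lay above SYP in both flasks, and the intervals of SYP and SYT4 overlapped in both.

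The remaining genes formed a lower group. CPLX2 (complexin 2) had 26.0 CPM (22.0 to 30.4) and 27.6 CPM (24.1 to 31.5) in 14.9% and 15.6% of cells. STX1A (syntaxin 1A) had 20.0 CPM (16.5 to 24.0) and 20.8 CPM (17.8 to 24.2) in 12.2% and 12.8% of cells, and RAB3A had 20.3 CPM (16.8 to 24.3) and 19.6 CPM (16.7 to 22.9) in 12.1% and 11.7% of cells. The intervals of neighbours in this group overlapped in both flasks, and all of them lay below SYT4. For scale, the median gene seen in 5% or more of cells had 25.3 CPM in each flask, so that VAMP2 and SNAP25 were above it while their SNARE partner STX1A was below it.

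**Figure D1:**
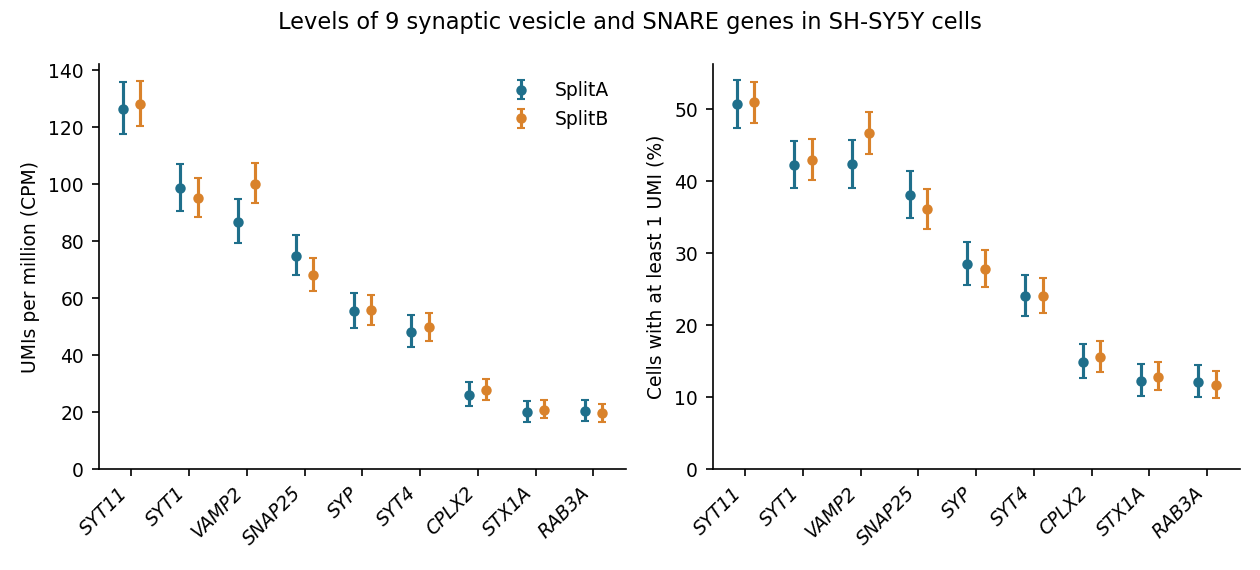
Levels of the 9 genes in SplitA and SplitB, as CPM on the left and as the percentage of cells with at least 1 UMI on the right. Points are flask values and bars 95% counting intervals (exact Poisson and exact binomial); the genes run from SYT11 at 126 and 128 CPM down to RAB3A at 20.3 and 19.6 CPM, and the bars of the 2 flasks overlap for every gene.

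No member was apart between the flasks by 0.32 or more on the log2 scale, while 7.05% of the 7783 genes seen in 5% or more of the cells of each flask were. The widest gap was that of VAMP2, lower in SplitA by 0.21 on the log2 scale (log2 ratio -0.21, interval -0.37 to -0.04). SNAP25 differed the other way with a log2 ratio of 0.13 (-0.05 to 0.32). For the other 7 genes the log2 ratio of SplitA to SplitB lay between -0.09 and 0.05.

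Most cells with a UMI of a member held only 1. STX1A was seen as a single UMI in 104 of its 110 cells in SplitA and in 142 of its 153 cells in SplitB, and SYT11, the most abundant, reached at most 8 UMIs in a SplitA cell and 10 in a SplitB cell. The spread over cells was expressed as a dispersion that equals 1 when counts vary only by sampling at the depth of each cell. It was highest among the 9 for SYT11 (1.33 and 1.30) and SYT4 (1.26 and 1.39) and nearest to 1 for CPLX2 (1.01 and 1.02). SYT4 and SYT11 lay between the 88.6th and 93.2nd percentile of all 7783 genes in both flasks, whereas the median over the 9 (1.098 and 1.09) was close to the median of all genes (1.06 and 1.07). The percentiles were not taken among genes of like level, and the median level of the 7783 genes was 25.3 CPM, below SYT4 and SYT11.

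A cell held a UMI of 2.65 of the 9 genes on average in SplitA (SD over cells 1.52) and of 2.69 in SplitB (SD 1.54), and at most 8. None of the 9 was seen in 5.90% and 6.78% of cells. With every cell thinned to 2000 UMIs, which left out 1 and 2 cells, these averages became 1.102 and 1.03 genes and the share of cells with none 30.5% and 32.2%, so that the numbers per cell follow depth. The fusion trio SNAP25, VAMP2 and STX1A was seen together in 21 cells of SplitA (2.34%, 1.45 to 3.55) and 32 cells of SplitB (2.68%, 1.84 to 3.76). The shares of the single genes at each depth would give 2.12% and 2.53%, inside these intervals.

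The relation to the cell cycle was described by the share of a cell's UMIs that fell on 43 S phase and 54 G2M genes. In each flask, cells were put into 5 bins of equal size by UMI total and ranked by that share in 3 equal parts per bin. The upper parts are called cycle-high cells (299 and 395 cells) and the lower parts cycle-low cells (299 and 395 cells). Their median depth was alike, at 6101 and 6063 UMIs in SplitA and 6305 and 6332 in SplitB, but cycle-high cells had more genes (median 1969 against 1758, and 2049 against 1796) and their CPM of the median gene was higher by 0.20 and 0.21 on the log2 scale. Changes are therefore given as measured and, where it matters, relative to that median. A gene was called higher or lower when it differed by at least 0.32 on the log2 scale, the same way, in both flasks.

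RAB3A was the member that fell most in cycle-high cells. It had 30.0 CPM in cycle-low, 20.1 in middle and 10.2 CPM in cycle-high cells of SplitA, and 28.9, 21.0 and 8.19 CPM in those of SplitB. The log2 ratio of cycle-high to cycle-low cells was -1.56 (interval -2.39 to -0.79) and -1.82 (-2.59 to -1.11), from 19 against 60 UMIs and 21 against 78 UMIs. This is 2.95-fold and 3.53-fold lower, and by the weaker of its 2 flask ratios RAB3A stood at rank 17 from the lowest of 7695 genes. The level stepped down from part to part in both flasks, and the intervals of the cycle-high and cycle-low parts did not overlap.

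SYT4 went the opposite way. Its level was 31.5, 42.7 and 71.9 CPM in cycle-low, middle and cycle-high cells of SplitA and 32.2, 50.3 and 67.5 CPM in those of SplitB, with log2 ratios of 1.19 (0.75 to 1.64) and 1.07 (0.69 to 1.45). The share of cells with a SYT4 UMI rose from 16.7% to 31.4% in SplitA and from 17.0% to 30.9% in SplitB. VAMP2 was lower in cycle-high cells, at 73.5 against 105 CPM in SplitA and 84.2 against 113 CPM in SplitB (log2 ratios -0.51 and -0.42). So 1 of 9 members was called higher against 29.9% of the 7695 genes, and 2 of 9 were called lower against 8.23% of them. The same calls relative to the median gene gave 1 member higher, against 17.8% of genes, and 4 lower, against 17.2%, because SYP (log2 -0.28 and -0.11) and SYT1 (-0.17 and -0.23) stood below the median gene.

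The other members moved less. SYT11 had log2 ratios of 0.35 and 0.32, which by the unrounded value was just short of the limit in SplitB. SNAP25 (0.03 and 0.11) and STX1A (-0.02 and 0.00) were near 0, and CPLX2 (0.19 and 0.52) differed between the flasks by less than its counting intervals. The summed level of the 9 was 573 against 571 CPM in SplitA and 562 against 557 CPM in SplitB. As measured, the sum was thus nearly the same while single members changed in opposite directions. The median gene was higher in cycle-high cells by 0.20 and 0.21 on the log2 scale, and the sum did not rise with it.

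**Figure D2:**
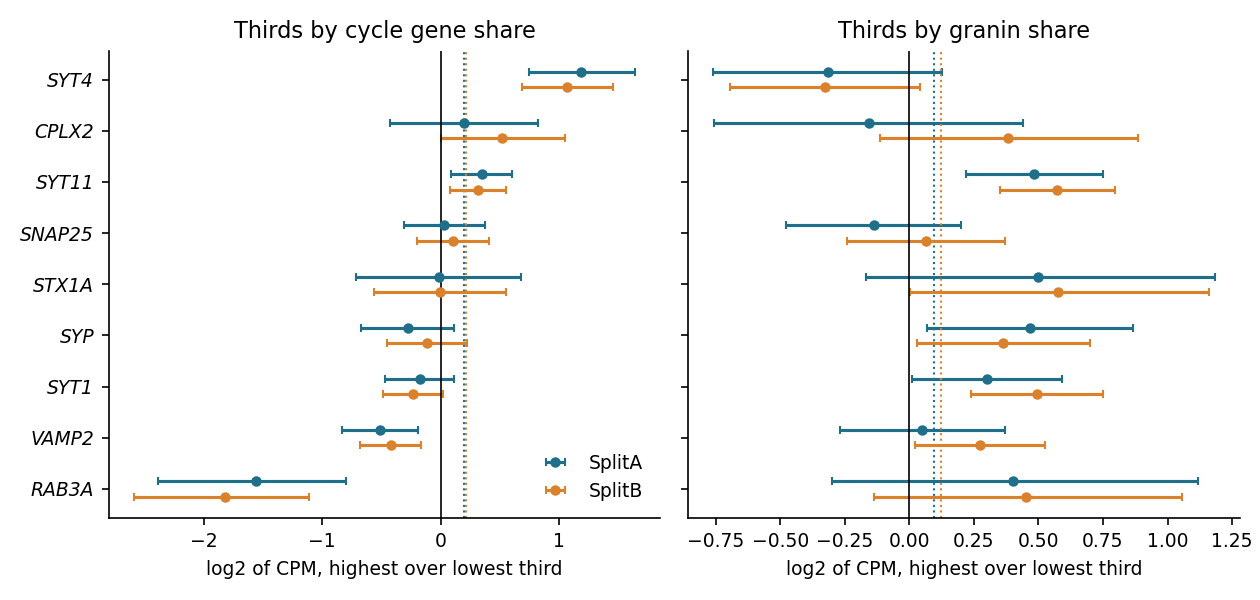
Log2 ratio of the CPM of each member between the upper and lower 3rd of cells by cycle gene share (left) and by granin share (right), per flask, with 95% counting intervals. Dotted lines mark the median gene of each flask. On the left RAB3A lies at -1.56 and -1.82 and SYT4 at 1.19 and 1.07. On the right SYT11, STX1A, SYP, SYT1 and RAB3A lie above and SYT4 and SNAP25 below the dotted lines in both flasks. Of these, SYT11, STX1A and SYT4 are at least 0.32 from the lines in both flasks.

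The S and the G2M genes were also used apart. With the S genes alone RAB3A was still lower (log2 -0.98 and -1.16) and SYT4 higher (0.48 and 1.01), and CPLX2 was called higher (0.45 and 0.77). Of 7695 genes, 23.4% were called higher with the S genes and 7% lower. Relative to the median gene CPLX2 was not called. With the G2M genes alone RAB3A had log2 ratios of -2.02 and -1.51, SYT4 1.01 and 1.05, and VAMP2 -0.53 and -0.37, whereas CPLX2 had 0.08 and 0.51 and was not called. Of 7695 genes, 28.6% were called higher with the G2M genes and 8.36% lower. As measured, VAMP2 was called with the G2M genes and not with the S genes (-0.26 and -0.33). Relative to the median gene it was called lower with both, at -0.41 and -0.48 with the S genes and -0.72 and -0.57 with the G2M genes. SYT1 was also lower relative to the median gene, at -0.55 and -0.44 with the S genes and -0.34 and -0.42 with the G2M genes. The share of all genes called in this way was not computed for the S and G2M genes apart. Whether the phases differ was not tested.

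Granin UMIs moved with these classes, at 0.0742% of UMIs in cycle-high against 0.129% in cycle-low cells of SplitA and 0.0807% against 0.137% in SplitB. Among cells below the median granin share of their depth bin, RAB3A remained lower with cycle share (log2 -1.54 and -0.97) and SYT4 higher (1.28 and 0.94), and VAMP2 had -0.31 and -0.46, which no longer met the limit in SplitA. SYT11 (0.77 and 0.51), STX1A (0.43 and 0.78) and CPLX2 (0.60 and 0.39) were called higher there. Of 7314 genes, 28.1% were called higher in these cells and 6.29% lower, and the median gene had 0.20 and 0.24. These calls are as measured, and calls relative to that median were not made in these cells. With every cell thinned to 2000 UMIs the log2 ratio was 1.06 and 0.89 for SYT4, -1.46 and -1.65 for RAB3A, whose UMIs then reached under 5% of cells, and -0.43 and -0.09 for VAMP2, which was not called. The thinned cells were ranked anew by their thinned cycle gene counts. Of 3569 genes, 25% were called higher at this depth and 9.05% lower.

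**Figure D3:**
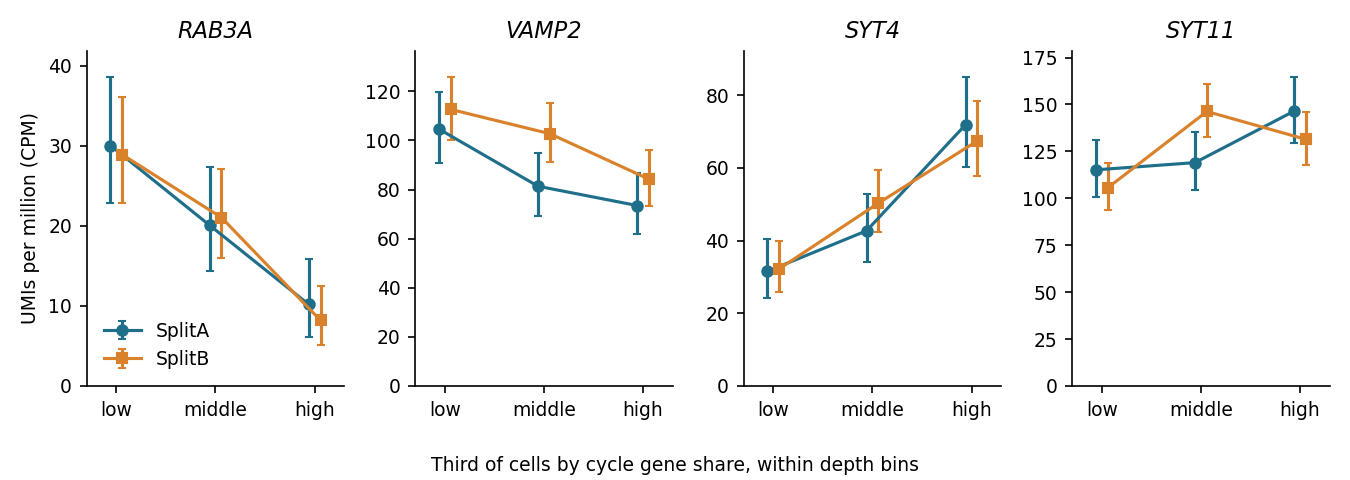
CPM of RAB3A, VAMP2, SYT4 and SYT11 in the low, middle and high 3rd of cells by cycle gene share within depth bins, in SplitA (circles) and SplitB (squares), with exact Poisson 95% intervals and axes from 0. RAB3A steps down from 30.0 to 10.2 and from 28.9 to 8.19 CPM, and SYT4 steps up from 31.5 to 71.9 and from 32.2 to 67.5 CPM.

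RAB3A lies on the reverse strand at chr19:18196784-18204042 (GRCh38, GENCODE 44), and the end of the MPV17L2 gene overlaps it on the other strand. SYT4 lies on the reverse strand at chr18:43267892-43277535 with no overlapping gene. Since these are the members with the largest changes in opposite directions, the sequence before their start is shown, from RefSeq promoters of GRCh38.p14. For RAB3A it is the 250 bases at chr19:18204043-18204292 and for SYT4 the 205 bases at chr18:43277536-43277740, both on the reverse strand and 5′ to 3′. Capitals mark matches, on either strand, of TGACG (a cyclic AMP response element core) and GGGCGG (a GC box).
RAB3A: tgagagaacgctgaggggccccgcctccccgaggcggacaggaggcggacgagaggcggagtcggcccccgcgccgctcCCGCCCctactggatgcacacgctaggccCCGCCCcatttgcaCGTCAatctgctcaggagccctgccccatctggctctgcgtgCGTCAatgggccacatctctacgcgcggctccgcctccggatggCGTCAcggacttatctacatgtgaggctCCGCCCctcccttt
SYT4: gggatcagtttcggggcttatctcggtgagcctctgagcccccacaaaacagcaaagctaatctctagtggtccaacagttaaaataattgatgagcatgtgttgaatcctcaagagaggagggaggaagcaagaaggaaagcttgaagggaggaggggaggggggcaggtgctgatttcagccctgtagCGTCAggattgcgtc

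RAB3A held 3 matches of TGACG and 3 of GGGCGG in this window, and none of them overlapped another. SYT4 held 0 matches of GGGCGG, and 1 of TGACG in the stretch shown or 2 in its full window of 250 bases. Of the windows of 250 bases before 27305 RefSeq genes, 21.7% held TGACG and 42.3% held GGGCGG on either strand. The letters TTTGAA, the core of the cell cycle homology region found in many G2M genes, had no match before any of the 8 members with a RefSeq promoter and was found in 13.6% of all windows, and CCAAT was found before SYT1 alone among the 8 and in 33.0% of all windows. GC content was 68.4% for RAB3A and 52.8% for SYT4, around a median of 58% over all windows. A match is a string of letters and not a measured binding site.

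The relation to the secretory granule was described in the same way, with the share of UMIs on the granins CHGA, CHGB, SCG2, SCG3, SCG5 and VGF. Granin-high cells (299 and 395) devoted 0.208% and 0.218% of UMIs to granins and granin-low cells 0.0246% and 0.0252%. The median gene was higher in granin-high cells by 0.10 and 0.12 on the log2 scale. Cycle genes took 0.477% against 0.654% and 0.497% against 0.614% of the UMIs of granin-high and granin-low cells, and mitochondrial genes a median of 8.98% against 8.38% and 9.36% against 8.43%.

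With granins, 4 of 9 members were called higher, against 15.3% of 7778 genes, and 0 lower, against 3.61%. SYT11 rose from 105 to 147 CPM in SplitA and from 105 to 157 CPM in SplitB (log2 0.48, 0.22 to 0.75, and 0.57, 0.35 to 0.80). STX1A went from 17.4 to 24.6 CPM and from 16.5 to 24.5 CPM (log2 0.50 and 0.58), SYP from 48.0 to 66.3 and from 50.2 to 64.6 CPM (0.47 and 0.36), and RAB3A from 16.4 to 21.6 and from 16.1 to 22.0 CPM (0.40 and 0.45). The intervals of SYT11 and SYP excluded 0 in both flasks, that of STX1A in SplitB alone and that of RAB3A in neither. The lower end for SYP in SplitB was 0.03. All of these intervals, and those of the next paragraph, cover counting error alone. The dispersion over cells was above 1 for all 9 genes, so the intervals are too narrow by an amount that was not tested.

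Relative to the median gene, 2 members were higher, SYT11 and STX1A, against 9.73% of genes, and 1 was lower, SYT4, against 6.97%. SYT4 had 40.7 against 50.6 CPM in SplitA and 41.8 against 52.5 CPM in SplitB (log2 -0.32 and -0.33). SYT1 had log2 ratios of 0.30 and 0.49, VAMP2 0.05 and 0.27, SNAP25 -0.14 and 0.07 and CPLX2 -0.16 and 0.38, none of which met the limit in both flasks. The interval of SYT1 still excluded 0 in both flasks (0.01 to 0.59 and 0.24 to 0.75), unlike that of RAB3A. That of VAMP2 excluded 0 in SplitB alone, and those of SYT4, SNAP25 and CPLX2 in neither. The summed level of the 9 was 599 against 522 CPM in SplitA and 633 against 502 CPM in SplitB.

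The calls varied with the granins used to rank the cells, and the difference between the rankings was not tested. By the chromogranins CHGA and CHGB alone, RAB3A was higher (log2 0.76 and 0.81), as were SYP (0.66 and 0.42) and SYT1 (0.45 and 0.34), and SYT4 was lower (-0.71 and -0.88), while SYT11 (0.22 and 0.37) and STX1A (0.22 and 0.38) met the limit in SplitB alone. By SCG2, SCG3, SCG5 and VGF alone, SYT11 (0.53 and 0.53) and STX1A (0.55 and 0.55) were called, SYP had 0.46 and 0.11, RAB3A -0.29 and -0.03, and SYT4 0.44 and 0.11. Of 7778 genes, the chromogranin ranking called 11.4% higher and 6.04% lower, and the other ranking 14.7% and 0.887%. CHGA and CHGB themselves were lower in cycle-high cells (log2 -1.29 and -1.48, and -1.55 and -1.09), while SCG3 was higher (0.39 and 0.36), SCG2 had -0.36 and 0.12 and VGF -0.25 and -0.40. The median gene had 0.20 and 0.21 in that comparison. Relative to it SCG3 was not called, and VGF was lower like CHGA and CHGB. Among cells below the median cycle share of their depth bin, RAB3A was not called with granins (log2 -0.03 and 0.30). In these cells SYT11 (0.68 and 0.49), STX1A (0.65 and 0.50), SYP (0.54 and 0.43), SYT1 (0.45 and 0.50) and CPLX2 (0.97 and 0.36) were higher and SYT4 was lower (-0.42 and -0.47). Of 7440 genes, 20.9% were higher and 3.91% lower in them, and the median gene had 0.15 and 0.19. At 2000 UMIs per cell no member was called with granins, and the log2 ratios were 0.20 and 0.16 for SYT11, 0.25 and 0.14 for SYP, 0.21 and 0.42 for STX1A and 0.58 and 0.39 for RAB3A. RAB3A was past the limit in both flasks there, but its UMIs, like those of STX1A, reached under 5% of cells. The thinned cells were ranked anew by their thinned granin counts, so the classes changed as well as the depth. The part of each was not tested. Of 3615 genes, 13.6% were called higher at this depth and 3.98% lower.

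Co-detection asked whether 2 members have a UMI in the same cell more often than cells of like depth would give. The odds ratio over the 5 depth bins had a median over the 36 pairs of 1.14 in SplitA and 1.12 in SplitB, and ranged from 0.805 to 1.95 and from 0.798 to 2.04. It was above 1 for 31 pairs in SplitA and 23 in SplitB, of which 21 were shared, and 12 pairs lay on opposite sides of 1. An odds ratio above 1 by at least 0.32 on the log2 scale in both flasks was found for 3 pairs. These were SYP with STX1A (1.33 and 1.54), STX1A with RAB3A (1.34 and 1.43) and VAMP2 with CPLX2 (1.35 and 1.28). Both genes were seen in 39 and 57 cells, 17 and 25 cells, and 69 and 104 cells, in that order. No interval was computed for the odds ratios, so counting error was not set beside them. Pairs of other genes were not computed, so no share over all genes stands beside these counts. Depth still varied within a bin. As the mean of the flasks, the median odds ratio was 1.27 with 1 bin, 1.13 with 5 bins and 1.02 at 2000 UMIs per cell. The part of depth within bins was not tested.

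The highest odds ratio of each flask was not as high in the other. SYT4 with CPLX2 had 1.95 in SplitA and 0.928 in SplitB, and VAMP2 with RAB3A had 1.084 and 2.04. SYT11 with RAB3A was below 1 in both flasks (0.819 and 0.798), as were SYT1 with RAB3A (0.967 and 0.977) and RAB3A with CPLX2 (0.941 and 0.998). Across the 36 pairs, which share genes and cells, Pearson's r between the flasks was -0.009, given as a description. Among the SNARE partners, SNAP25 with VAMP2 was above 1 in both flasks (1.18 and 1.42), SNAP25 with STX1A had 1.43 and 0.986, and VAMP2 with STX1A 0.805 and 1.097.

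**Figure D4:**
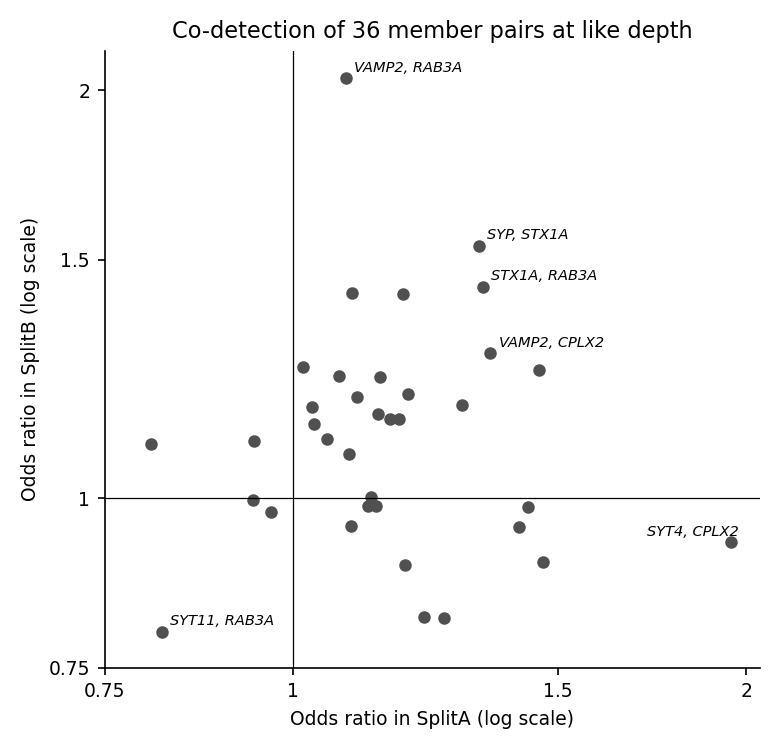
Mantel-Haenszel odds ratio that 2 members have a UMI in the same cell, over 5 depth bins, for the 36 pairs, SplitA against SplitB on log axes, with lines at 1. The points form no line from lower left to upper right (r of -0.009), and SYT4 with CPLX2 and VAMP2 with RAB3A are high in 1 flask only.

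Levels also moved with depth and with the mitochondrial share, whose part in the results was not tested beyond the settings given. From the shallowest to the deepest of the 5 bins the summed level of the 9 went from 684 to 527 CPM in SplitA and from 590 to 552 CPM in SplitB. The intervals of these end bins overlapped in SplitB, where the bins between had 578, 606 and 530 CPM, and not in SplitA. SYT11 went from 181 to 122 and from 166 to 124 CPM, and SNAP25 from 112 to 57.0 and from 83.8 to 56.1 CPM. Their end intervals overlapped for SNAP25 in SplitB alone. CPLX2 had 21.4 and 29.3 CPM in the end bins of SplitA and 16.0 and 31.6 CPM in those of SplitB. Its shallowest bins held 13 UMIs each, and its end intervals overlapped in both flasks. The 70 and 104 cells with at least 15% mitochondrial UMIs had summed levels of 716 and 628 CPM, against 550 and 562 CPM in the others, at a median of 2704 and 2837 UMIs per cell against 6329 and 6579.

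A wider set of 133 genes from the same families and from the release and recycling machinery gave the surroundings of the 9. Of these, 66 were seen in 5% or more of the cells of each flask, and 20 had none in any kept cell, among them the synaptotagmins SYT6, SYT10 and SYT12, the complexins CPLX3 and CPLX4 and the glutamate transporters SLC17A6 and SLC17A8. Some members led their families and others did not. SYT11 and SYT1 were the most abundant of 17 synaptotagmins, SNAP25 stood above SNAP47 (41.5 and 37.4 CPM) and SNAP29 (37.6 and 38.2 CPM), and VAMP2 above the Golgi R-SNARE YKT6 (62.5 and 65.3 CPM). Among 16 syntaxins STX1A was well below STX10 (121 and 124 CPM), a syntaxin of endosome and Golgi traffic, and STX2 (34.9 and 38.9 CPM). The clathrin adaptor subunit AP2M1 was the most abundant gene of the whole set (175 and 164 CPM), followed in its list by SH3GL1 (42.0 and 38.9 CPM). RAB3A (20.3 and 19.6 CPM) was close to RAB3GAP2 (21.4 and 21.6 CPM), which acts on RAB3 proteins, and to RIMS3 (20.8 and 19.0 CPM). Among the most abundant genes of the other lists were NAPA (29.2 and 32.0 CPM) for SNARE regulators, SYNGR2 (41.2 and 41.5 CPM) and SV2A (41.0 and 41.5 CPM) beside SYP for vesicle membrane proteins, and APBA2 (49.0 and 48.1 CPM) and PPFIA3 (22.9 and 25.2 CPM) for the active zone.

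With cycle share, 11 of the 66 genes were called higher and 11 lower, or 6 and 15 relative to the median gene. Of all 7695 genes, 29.9% were higher and 8.23% lower, or 17.8% and 17.2% relative to the median gene. The lower genes included further small GTPases of secretion, RAB27B (log2 -1.94 and -1.55) and RAB3D (-1.25 and -0.63), beside RAB3A. They also included the calcium sensor SYT5 (-0.90 and -1.40), SYT17 (-0.97 and -0.59), the vesicular monoamine transporter SLC18A1 (-1.47 and -0.96), the SNAREs STX4 (-1.80 and -0.86), STX6 (-0.51 and -0.38) and VAMP5 (-0.90 and -1.51), and the synaptogyrins SYNGR1 (-0.49 and -1.11), SYNGR2 (-0.49 and -0.63) and SYNGR3 (-0.53 and -0.53). Several of these ratios rest on few UMIs in all. RAB27B held 56 and 69, SYT17 47 and 69, RAB3D 56 and 100, SYNGR1 62 and 87 and VAMP5 69 and 90 UMIs. No interval was computed for genes of the wider set, with cycle share or with granins. Of the other RAB3 and RAB27 GTPases, RAB3C (-0.09 and -0.75) was not called. RAB3B (0.01 and 0.23) and RAB27A (0.38 and 0.44) were not lower, and were seen in under 5% of cells.

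The genes called higher with cycle share were, beside SYT4, its family member SYT14 (log2 0.60 and 0.59), RAB3IP (1.28 and 1.23), an exchange factor for Rab GTPases, SCAMP1 (at least 0.70 in both flasks), RIMS4 (1.15 and 0.45), SNAP29 (0.50 and 0.33), NSF (0.45 and 0.44), the ATPase that takes SNARE complexes apart, and APBA2 (0.43 and 0.33). Relative to the median gene, RIMS4, SNAP29, NSF and APBA2 were not called. RIMS4 held 57 and 68 UMIs in all, NSF 61 and 84 and RAB3IP 62 and 79. Of the vesicle endocytosis genes, 4 of the 9 with enough UMIs were higher and 0 lower, against 29.9% and 8.23% of all genes. These were the dynamins DNM1 (0.80 and 0.83) and DNM2 (1.12 and 1.06), PICALM (0.56 and 0.71) and SH3GL1 (0.49 and 0.73). Relative to the median gene 3 of them were higher, without SH3GL1, and 0 lower, against 17.8% and 17.2% of all genes. Dynamins cut vesicles from the membrane and DNM2 is used in all cell types.

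**Figure D5:**
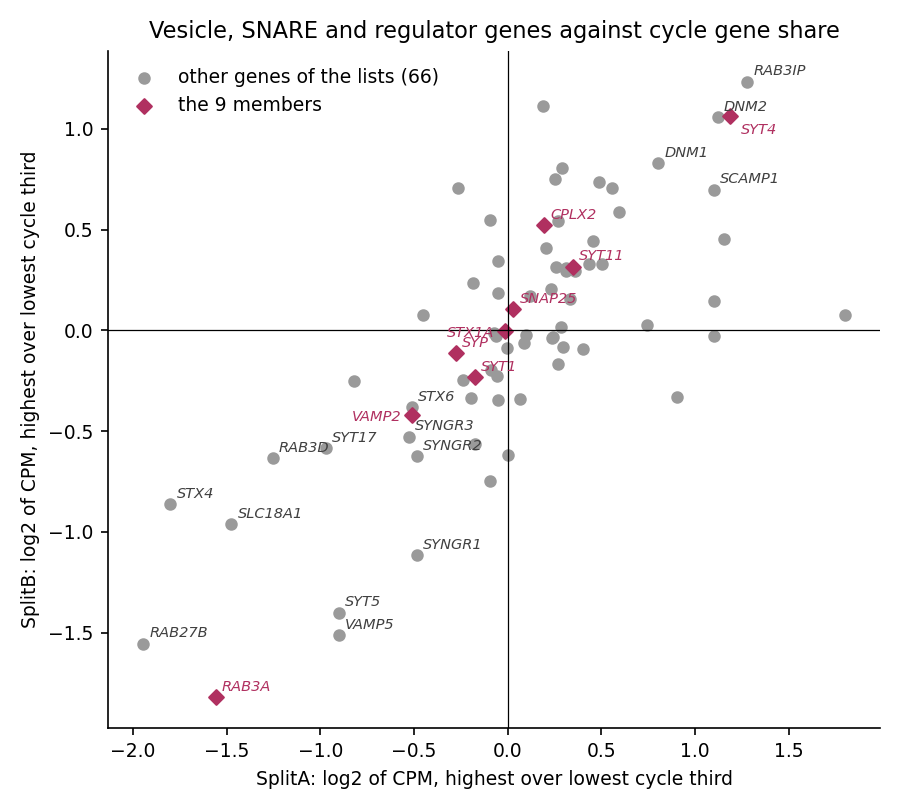
Log2 ratio of CPM between the upper and lower 3rd of cells by cycle share in SplitA (horizontal) and SplitB (vertical) for the 9 members (diamonds) and 66 other genes of the same families and machinery (circles). RAB3A lies at the lower left beside RAB27B, SYT5 and VAMP5, and SYT4 at the upper right beside DNM2 and RAB3IP.

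With granins, 18 of the 66 genes were called higher and 0 lower, or 11 and 0 relative to the median gene. Of all 7778 genes, 15.3% were higher and 3.61% lower, or 9.73% and 6.97% relative to the median gene. The largest were SLC18A1 (log2 1.72 and 1.24), which fills dense-core granules with monoamines, SYT5 (1.40 and 1.27), SYNGR3 (1.17 and 0.99) and RIMS3 (1.04 and 0.86). UNC13A (0.78 and 0.68), which primes vesicles, was higher like STX1A, as were RAB3C (0.62 and 0.59) and PCLO (0.63 and 0.66). VAMP3, VAMP5, STX4 and NAPG lay between 0.33 and 1.11, and STX2, YKT6, SEC22B, NSF, RAB3D and ERC1 between 0.32 and 0.65. The other vesicular transporter with enough UMIs, SLC18A3 for acetylcholine (45.1 and 42.4 CPM), had log2 ratios of -0.05 and 0.01, and the endocytosis genes had 0 of 9 called, against 15.3% of all genes higher and 3.61% lower.

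The genes whose log-normalized level over cells was most like that of a member were weakly related to it. The highest r was that of CCND1 with SYT11 (0.17 in both flasks, over 899 and 1195 cells), and JUND and STMN4 followed for the same member. SYT4 was most like the cycle genes CENPA (0.13 and 0.16), HMGB2 (0.14 and 0.13) and UBE2C (0.14 and 0.12). SYT1 was most like S100A6 (0.16 and 0.16), GNAS and GAL, VAMP2 like FTL (0.14 and 0.15), CCNI and RPL26, and RAB3A like MLLT11 (0.12 and 0.12), GAPDH and TPI1. The leading genes were SYNRG, UBXN2B and SCARB2 for SYP, PAXX, C14orf119 and FANCA for SNAP25, DCX, NES and NSMCE3 for STX1A, and HSPA12A, COX8A and TMA7 for CPLX2, with an r of at most 0.13. For the sum of the 9 the leading genes were COX8A, JUND, CCNI, C4orf48, CREB5, FTH1, S100A6, BTG1, MAP4 and SERINC2, with an r of 0.09 to 0.15, while the median gene had 0.01 and 0.02. These values share library, cells and depth, and in counts this sparse they are a description only.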

How the data were processed

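The authors pooled the hashtagged cells of both flasks, prepared 10x 3′ libraries, mapped reads to GRCh38 and deposited UMI counts per gene and cell without normalization. Per the submitters' processing notes, STAR 2.7 and Cell Ranger 4.0.0 were used. The gene annotation and whether counting used strand are not given in the sources used here, so UMIs of RAB3A and SNAP25 cannot be told apart from those of genes that overlap them. The deposited table holds 33538 genes and 2 hashtags in 2879 cells, with distinct barcodes; 33113 identifiers have a symbol. Hashtag counts were left out of all totals.

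CPM was the summed UMIs of a gene over those of all genes. Log-normalized levels used a scale factor of 10000. Cells were not filtered on the mitochondrial share, taken over 13 genes. Multiplets across flasks were removed by hashtag; no doublet caller was run, and doublets within a flask were kept. Classes, odds ratios and calls were made in Python 3.11.15 (pandas 2.3.3, scipy 1.17.1, numpy 2.4.6, matplotlib 3.10.9 for plots). The class comparison was run on simulated Poisson counts for classes by cycle genes alone. That run does not cover the granin classes or genes that spread more than counting gives. Genes of the classes themselves were left out of the genes tested. The 9 genes and the gene lists were chosen with earlier results of these data known. From the lists, the text names the most abundant genes and those called, apart from some not reported here, and for each member the 3 genes most like it. Alternatives concerned cell filters, hashtag limit, thinning, depth bins, class size, gene lists, detection minimum, fold limit and each flask left out.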

Additional observations from a re-analysis of the deposited data

Results flagged for a closer look

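Cells outside the comparisons also held the 9 genes. The 95 multiplets, cells that the hashtag rule placed in neither flask, had a summed level of 548 CPM (490 to 610), where 3 counts would be 4.99 CPM. The 690 singlets with under 1000 genes had 662 CPM (612 to 715), where 3 counts would be 3.04 CPM, at a median of 1407 UMIs per cell and with a median mitochondrial share of 35.0%. All 9 genes had a UMI in both sets.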

How the results depend on the processing

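The counts are sparse, each flask is 1 culture, and no setting adds replicates, so the values below show only how far a result moves with a choice. The cause of each move was not tested. The summed level of the 9 genes, 561 CPM as the mean of the flasks, was 567 with a minimum of 500 genes, 552 with 1500 genes and 588 at 2000 UMIs per cell. Between flasks 1 member, SYT1, was apart at 2000 UMIs (log2 0.34) and 1, VAMP2, with a limit of 1.1-fold. The median odds ratio of 1.13 was 1.14 with 500 genes, 1.02 at 2000 UMIs, 1.09 without the 5% of cells with the most UMIs, 1.11 with 10 depth bins and 1.27 with 1 depth bin.

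With granins, 4 members were higher and 0 lower, against 15.3% and 3.61% of all genes. Higher were 5 with 1.1-fold (30.3% of genes) and among cells low in cycle genes (20.9%), and 3 with CHGA and CHGB alone (SYP, SYT1, RAB3A; 11.4%). RAB3A lost its call, leaving 3, with the mitochondrial limit, 500 genes and 10 depth bins (13% to 13.5%). Higher were 2 (SYT11, STX1A) with 1500 genes, without the 5% of cells with the most UMIs, with SCG2, SCG3, SCG5 and VGF alone and relative to the median gene (9.73% to 14.7%), 1 (STX1A) with classes of 2 equal parts (9.46%), and 0 at 2000 UMIs (13.6%) and with 1.5-fold (5.12%). SYT4 was the 1 member lower with the mitochondrial limit, 1500 genes, CHGA and CHGB alone, 10 depth bins, 1.1-fold, relative to the median gene and among cells low in cycle genes (3.91% to 11.3%). RAB3A turned to a mean log2 ratio of -0.16 with SCG2, SCG3, SCG5 and VGF alone, the 1 called value that changed sign. With 1 flask left out, where a call needs the other flask alone, 4 to 6 members were higher (28.5% to 30.6%) and 0 to 1 lower (9.49% to 12.6%).

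With cycle genes, 1 member was higher and 2 lower, against 29.9% and 8.23% of all genes. Higher were 2 with the S genes alone (SYT4, CPLX2; 23.4%), 2 without the 5% of cells with the most UMIs and with the total counted without cycle genes (SYT4, SYT11; 31% to 31.1%), 3 with 1.1-fold (43.8%), and 4 among cells low in granins (28.1%). Lower were 1 (RAB3A) with the S genes, with 2 equal parts, with 1.5-fold and among cells low in granins (3.34% to 7%), 3 with 1.1-fold (16%), 4 relative to the median gene (17.2%), and 0 at 2000 UMIs (9.05%). With 1 flask left out, 2 members were higher (41.2% to 42%) and 2 lower (14.3% to 15.7%). Over all settings the mean log2 ratio was -1.90 to -1.01 for RAB3A, 0.74 to 1.24 for SYT4 and -0.67 to -0.26 for VAMP2. Of the single values of a member, 65 of 81 levels, 133 of 180 ratios with granins and 133 of 189 with cycle genes stayed within 1 SD between flasks. Part of these counts was fixed in advance. A changed fold limit or detection minimum leaves a ratio as it was, and a value with 1 flask left out always lies within 1 SD of the mean. The counts are therefore no measure of stability. No paired analysis was possible because no result comes from a test, and the ratios between classes, which are formed within each flask, are given side by side for both flasks.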
